A study of Mus musculus with 5 samples.

Results

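A set of 8 genes of the early dermal mesenchyme were examined for the histone mark H3K27me3, namely En1, Twist1, Twist2, Msx1, Msx2, Prrx1, Prrx2 and Pdgfra. They were chosen by name as regulators of this lineage and its growth factor receptor, and make up 8 of the 55450 annotated genes on the mouse chromosomes (8 of 21951 protein-coding genes). ChIP-seq with an H3K27me3 antibody had been performed on wild-type (WT) dermal fibroblasts from embryonic mouse skin, with 2 libraries labelled E14 and 2 labelled E17. The study's text stages the same fibroblasts E14.5 and E18.5, gives the mice a C57BL/6 background and states that the cells were expanded in culture before the assay. The labels and the text name no deletion or treatment for these 4 libraries, and neither gives, for these libraries, the body site of the skin (back skin is named for the histology), the number of embryos behind a library or the sex of the embryos, so p-values measure only the spread between these libraries.

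H3K27me3 is placed by Polycomb repressive complex 2, whose catalytic subunit is Ezh2 or Ezh1, and is removed by the demethylases Kdm6a and Kdm6b. It is known for covering silent developmental regulators, most often around CpG-rich start sites, while genes in active use tend to be free of it. In the embryo, dermal fibroblasts arise from mesenchyme that carries homeobox and bHLH factors set by position and by Wnt and Bmp signals, and Pdgfra is a common surface marker of fibroblasts.

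The 8 genes fell into 3 patterns. Msx1 and Msx2 lay inside wide H3K27me3 peaks in 3 libraries, and in E17 replicate 2 each was covered in part by a pair of separate peaks. En1 had peaks on both sides of its start site at E14 and none within 257 kb of it at E17. Twist1, Twist2, Prrx1, Prrx2 and Pdgfra had no peak in any library, neither around a start site nor in the gene body.

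The promoter sequences of 4 genes are given here because they stand for these patterns. Msx1 stands for a gene with peaks throughout and En1 for a gene with peaks at E14 only. Twist1 stands for a CpG-rich promoter at a gene with no peak, and Pdgfra for a CpG-poor promoter at such a gene. Each runs 5′ to 3′ on the strand of the gene from 250 bases before to 50 bases after the RefSeq start (GRCm38.p6), and capitals mark CpG dinucleotides. The positions are chr5:37824536-37824835 on the minus strand for Msx1, chr1:120602237-120602536 on the plus strand for En1, chr12:33957421-33957720 on the plus strand for Twist1 and chr5:75152001-75152300 on the plus strand for Pdgfra.
Msx1: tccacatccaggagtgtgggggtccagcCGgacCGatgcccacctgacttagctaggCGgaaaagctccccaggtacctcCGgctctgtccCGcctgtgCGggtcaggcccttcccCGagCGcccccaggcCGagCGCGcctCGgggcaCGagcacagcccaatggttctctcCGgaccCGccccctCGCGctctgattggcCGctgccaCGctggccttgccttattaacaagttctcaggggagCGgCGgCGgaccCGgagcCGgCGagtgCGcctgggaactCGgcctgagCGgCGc
En1: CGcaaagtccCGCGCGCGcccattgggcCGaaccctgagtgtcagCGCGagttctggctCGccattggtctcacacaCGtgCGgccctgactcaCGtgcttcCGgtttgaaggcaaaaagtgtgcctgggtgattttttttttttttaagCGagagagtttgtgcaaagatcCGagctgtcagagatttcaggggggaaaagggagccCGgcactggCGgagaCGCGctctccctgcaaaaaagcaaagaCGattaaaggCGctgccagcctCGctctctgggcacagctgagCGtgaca
Twist1: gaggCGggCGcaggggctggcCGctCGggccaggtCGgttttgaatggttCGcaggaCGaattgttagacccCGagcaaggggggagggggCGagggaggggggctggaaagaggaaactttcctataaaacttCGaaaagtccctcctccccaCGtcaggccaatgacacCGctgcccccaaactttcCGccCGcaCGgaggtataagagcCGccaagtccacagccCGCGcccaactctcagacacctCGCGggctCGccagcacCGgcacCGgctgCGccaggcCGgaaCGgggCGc
Pdgfra: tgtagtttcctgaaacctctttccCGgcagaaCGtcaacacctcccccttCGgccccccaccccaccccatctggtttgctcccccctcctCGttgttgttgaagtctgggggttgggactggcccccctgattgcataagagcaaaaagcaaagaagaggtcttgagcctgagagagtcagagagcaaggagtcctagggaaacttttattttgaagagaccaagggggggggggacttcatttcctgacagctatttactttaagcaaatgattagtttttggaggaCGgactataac

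All 8 genes had 1 promoter in the RefSeq table, and each sequence matched the reference genome. The Msx1 promoter held 29 CpG, more than that of any other member, and 17.2% of the 21262 promoters of protein-coding genes held as many. The other CpG-rich promoters were those of Prrx2 with 28, Twist1 with 27, Twist2 with 25, En1 with 23 and Msx2 with 22 CpG. The median over all 21262 promoters was 13. Prrx1 held 6 and Pdgfra 5, and 67.7% and 71.6% of the promoters held as many as these. Of the 6 members above that median, 3 had peaks near their start site and 3 had none, so CpG count did not separate the members with a peak from those without. The RefSeq start lay 294 bases downstream of the start used for the peaks at Msx2 and 10395 bases downstream at Prrx2, where it belongs to the inner start site.

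**Figure D1:**
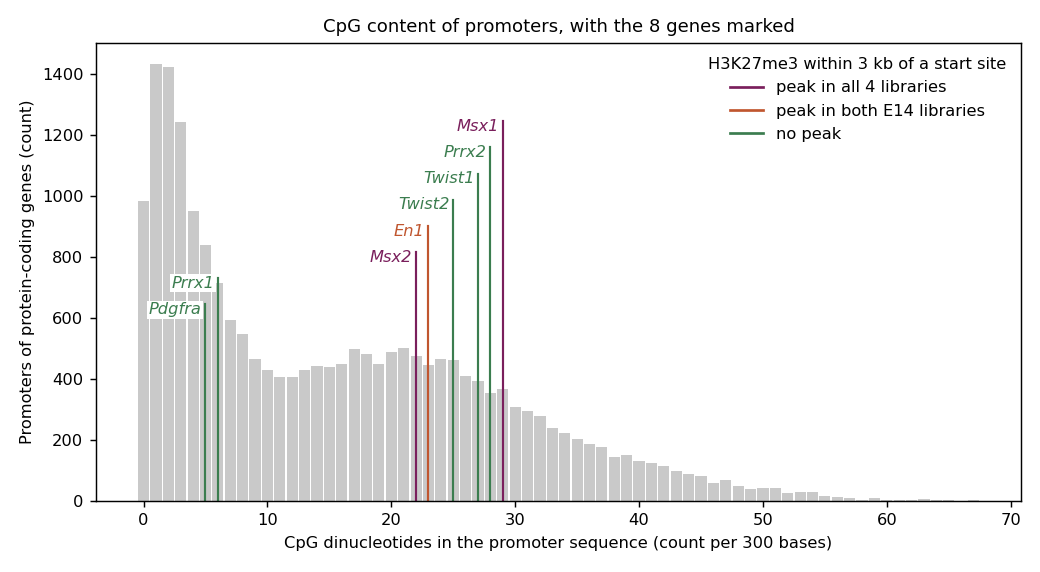
Number of promoters of protein-coding genes (y axis, count) by the number of CpG dinucleotides in their 300 bases (x axis, count), as grey bars. Coloured lines mark the 8 genes by the H3K27me3 peaks within 3 kb of their start sites; 3 genes with no peak lie at 25 to 28 CpG, among the 3 genes with peaks at 22 to 29.

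Peaks are intervals in which the peak caller found more fragments than its background predicts. A gene was called marked at E14 or E17 if both libraries of that group had a peak within 3000 bp of at least 1 of its start sites. By this rule, 3 of the 8 genes were marked at E14 (En1, Msx1 and Msx2) and 2 at E17 (Msx1 and Msx2). Over all protein-coding genes the shares were 19.5% at E14, 12.2% at E17 and 12% in all 4 lists, and over all annotated genes 11.6%, 7.11% and 6.98%. The 5 members without any such peak stand beside 74.1% of protein-coding genes and 83.6% of all genes. The pattern of En1, with a peak in both E14 lists and neither E17 list, was that of 4.62% of protein-coding genes and 2.91% of all genes. With so few genes, these counts describe the members and say nothing of how they differ from other genes.

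The lists differed in length, with 21546 and 16574 peaks at E14 and 10429 and 7107 at E17, and carry no read counts. The depth behind a peak is therefore unknown, and a stretch with no peak may lie just under the threshold of its list. All 8 members are autosomal. E14 replicate 2 stood apart from the other libraries on chromosome X, with 1035 peaks there against 58 to 179. As a check of the cell type, none of 8 fibroblast genes (Col1a1, Col1a2, Col3a1, Dcn, Lum, Fbn1, Thy1 and Vim) carried a start-site peak in the 4 lists. Neither did 74.1% of all protein-coding genes. Of 21 markers of keratinocytes, endothelium, immune cells, melanocytes and skeletal muscle, 7 were marked at E14 and 5 at E17. The other 14 had no peak in any library. Over all protein-coding genes, 19.5% were marked at E14 and 12.2% at E17. The absence of a peak thus does not by itself identify the cell type. All 7 cell type markers that were marked at E14 were shorter in both E17 lists than in both E14 lists. The same was true of 63.3% of protein-coding genes with any covered length near a start site. The part of other cells in the stage differences was not tested.

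En1 encodes the homeobox factor Engrailed-1, which marks a fibroblast lineage of the dorsal skin. The gene lies on chromosome 1 from 120602418 to 120607992 on the plus strand (GRCm38) and has 2 exons and a single annotated start site. Of the 6001 bp around that site, peaks covered 4403 bp in E14 replicate 1, 2270 bp in E14 replicate 2 and 0 bp in both E17 libraries. Both E14 libraries were thus above both E17 libraries, with a mean of 3337 ± 1508 bp (SD, n = 2) at E14 (two-sided exact permutation test, p = 0.333, and no lower p is possible with this number of libraries). Among genes marked at E14, 23.8% of the protein-coding ones and 25.1% of all lost every start-site peak at E17, as En1 did. En1 kept this pattern when the 4 lists were shortened to equal numbers of peaks by q-value, but with a −log10 q-value of at least 5 it was no longer marked at E14, since its peak in replicate 2 was left out (exact permutation test, p = 1). Covered length was then left in E14 replicate 1 alone, so that p-value was fixed in advance.

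The E14 peaks at En1 were wide but incomplete, and the replicates differed in their extent. In replicate 1, a peak of 11611 bp (chr1:120590755-120602365) ended 53 bp before the start site, and a second of 15876 bp (chr1:120603964-120619839) began 1546 bp after it, in the intron. The second ran through exon 2 and beyond the end of the gene. In replicate 2, the peak nearest to the start was 4372 bp wide and ended 731 bp upstream of it, and the next downstream peak began 11056 bp after it, beyond the gene. Exon 1 of En1 was thus free of peaks in all 4 libraries, and exon 2 was covered in E14 replicate 1 alone. Of the 300 bases of the printed En1 promoter, peaks covered 129 in E14 replicate 1 and 0 in E14 replicate 2. Within 30 kb of the start site, the covered length was 29686 and 9469 bp at E14 and 0 bp in both E17 libraries.

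By fold enrichment, the ratio of the signal in a peak to the background that the peak caller used, the strongest En1 peak near the start reached 4.46 in E14 replicate 1 and 3.97 in E14 replicate 2. These stood at the 89.0 and 73.0 percentile of their lists, against medians of 83.7 and 82.1 for the strongest start-site peak of all protein-coding genes with a peak in those lists. En1 was thus near the middle of the marked genes at E14, above the median in replicate 1 and below it in replicate 2. Its −log10 q-value was 8.01 and 4.79, where the authors' threshold corresponds to 2. The lists at E17 held no peak closer than 257.2 and 257.7 kb to the En1 start.

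**Figure D2:**
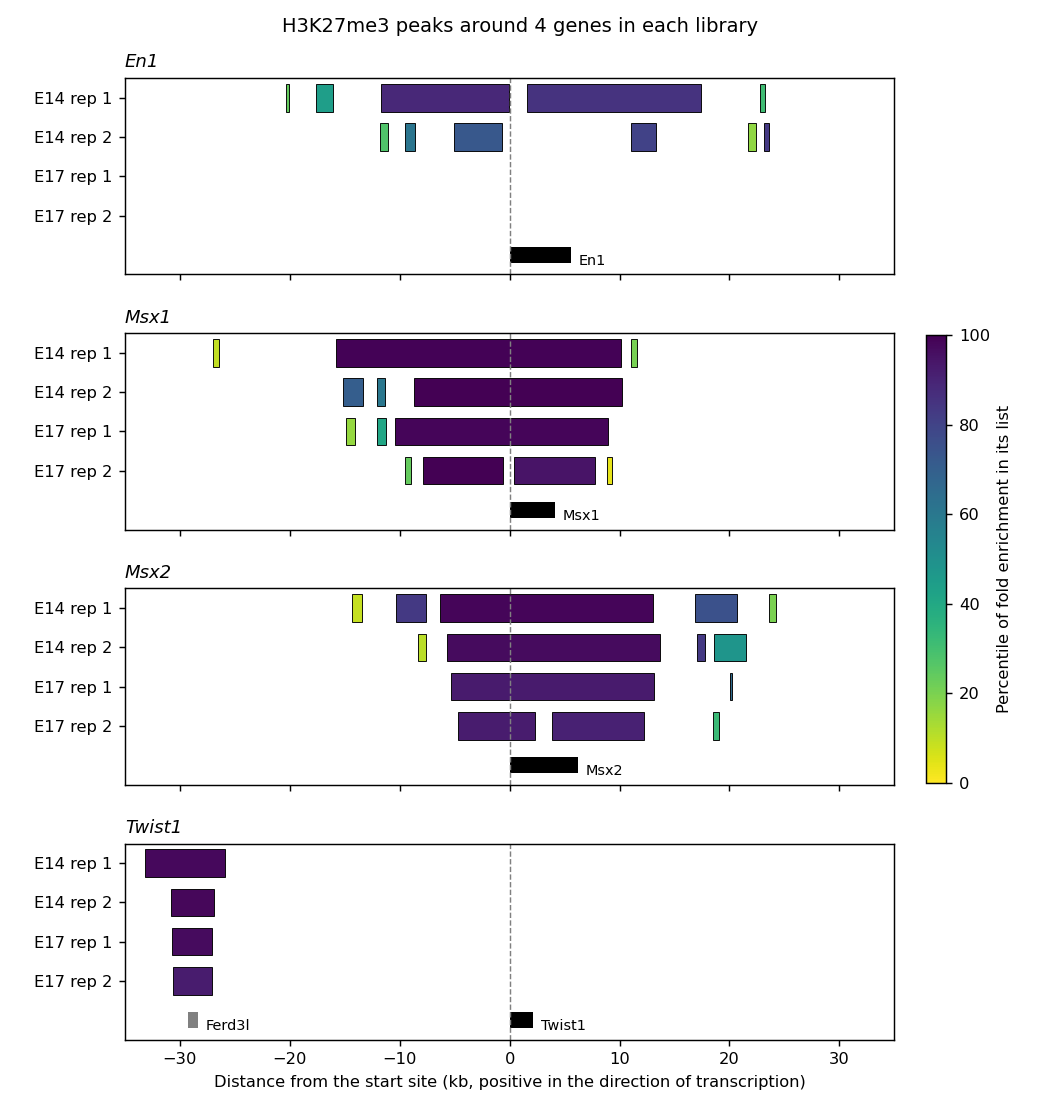
Peaks of each library (rows) around the start sites of En1, Msx1, Msx2 and Twist1, by distance from the start site in kb (x axis), with the gene as a black bar and Ferd3l as a grey bar. Colour gives the percentile of a peak's fold enrichment in its own list; the En1 rows are empty at E17, the Msx2 start site is covered in every row and the Msx1 start site in every row but that of E17 replicate 2, and the peaks left of Twist1 lie over Ferd3l.

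Msx1 and Msx2 encode homeobox factors that respond to Bmp signals in many embryonic tissues. Msx1 lies on chromosome 5 from 37820485 to 37824583 on the minus strand. Peaks covered all 6002 bp of its start-site windows in both E14 libraries and in E17 replicate 1, and 5050 bp in E17 replicate 2. The groups overlapped, and only E17 replicate 2 differed from a fully covered window. Every split of the libraries then gives the same difference, so the p-value was fixed in advance (exact permutation test, two-sided, p = 1). It cannot compare the stages.

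The Msx1 domain was a single peak of 25843 bp in E14 replicate 1, 18933 bp in E14 replicate 2 and 19341 bp in E17 replicate 1. In E17 replicate 2 it was split at the start, into an upstream peak of 7258 bp and a downstream one of 7427 bp. The gap between these spanned 952 bp, from 580 bp upstream to 371 bp downstream of the start, and took in the whole printed Msx1 promoter and part of exon 1, of which 48.3% was covered. In the other 3 libraries that promoter lay wholly within a peak. In the order of peak width, the Msx1 domain was peak number 99 and 103 of the E14 lists and number 66 of the E17 replicate 1 list, and the wider piece in E17 replicate 2 was number 300.

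Msx1 had some of the strongest peaks of each list. Its fold enrichment was 7.85 and 8.64 at E14 and 5.46 and 6.21 at E17, which placed it at the 99.3 and 99.8 percentile of the E14 lists and the 98.6 and 99.9 percentile of the E17 lists. Counted from the top, it was peak number 143 of 21546, number 41 of 16574, number 150 of 10429 and number 8 of 7107. In E17 replicate 2 these values are those of the upstream piece. The downstream piece there had a fold enrichment of 5.05, at the 94.8 percentile and number 371. With the stronger piece taken, the percentiles of the stages overlapped (exact permutation test, two-sided, p = 1). Fold enrichment itself was not compared between libraries, since each list has its own depth and background.

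Msx2 lies on chromosome 13 from 53466884 to 53473074 on the minus strand. Its start-site window of 6001 bp was covered whole in both E14 libraries and in E17 replicate 1, and over 5273 bp in E17 replicate 2, with the start site inside a peak in all 4 libraries. The groups overlapped, and as at Msx1 only E17 replicate 2 fell short of the full window. The p-value was thus fixed in advance and cannot compare the stages (two-sided exact permutation test, p = 1). Single peaks of 19425 and 19411 bp held the gene at E14, one of 18433 bp in E17 replicate 1, and peaks of 6926 and 8423 bp in E17 replicate 2. The break between the last pair fell inside the intron, and both exons of Msx2 were covered in every library.

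The Msx2 domain stood lower in the E17 lists than in the E14 lists. Its fold enrichment was 7.07 and 6.63 at E14 and 4.61 and 4.87 at E17. It was at the 98.6 and 97.1 percentile of the E14 lists and at the 92.6 and 92.3 percentile of the E17 lists. Both E17 libraries were below both E14 libraries, by 5.42 percentile points on average (97.9 ± 1.10 against 92.4 ± 0.225, SD, n = 2; exact permutation test, two-sided, p = 0.333). The median for the strongest start-site peak of all marked protein-coding genes was also lower at E17, at 78.6 and 72.9 against 83.7 and 82.1 at E14, so a lower place in the E17 lists was not particular to Msx2. The size of the Msx2 difference depended on which peaks were ranked, with 9.31 points at a −log10 q-value of at least 3, 28.3 at a value of at least 5 and 10.8 among peaks of at least 1000 bp. With lists of equal number by q-value it was smaller, at 3.83 points. Whether the difference at Msx2 was unlike that at Msx1 was not tested.

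**Figure D3:**
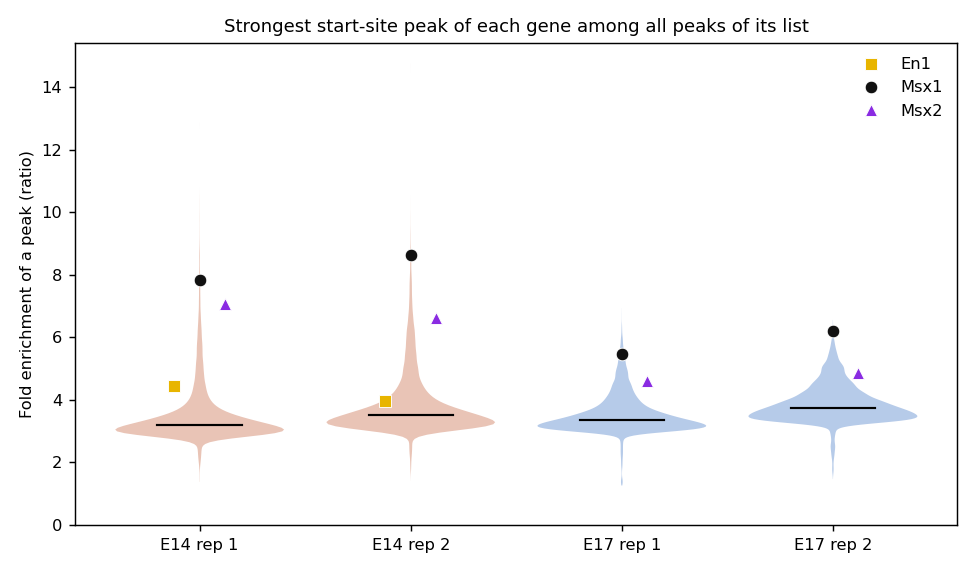
Fold enrichment (y axis, ratio) of all peaks in each library as shaded outlines, with the median as a black line. Symbols give the strongest start-site peak of En1, Msx1 and Msx2; Msx1 is above Msx2 in every library, and En1 has a symbol at E14 only.

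The 3000 bp windows were filled by both Msx domains, so their edges were measured over the 30 kb either side of the start sites, a width chosen after the first values were seen. Msx1 was covered over 26989 and 21523 bp at E14 and 20993 and 15737 bp at E17. Msx2 was covered over 27531 and 23802 bp at E14 and 18647 and 15869 bp at E17. At both genes the stages did not overlap, and the mean was 24.3% lower at E17 for Msx1 and 32.8% lower for Msx2 (exact permutation test, two-sided, p = 0.333 each). At Msx1 the gap between the stages was smaller than the difference between the replicates of either stage.

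Of the protein-coding genes with any covered length in this wider window, 69% were shorter in both E17 lists than in both E14 lists, and 4 of 4 members with covered length there were (En1, Msx1, Msx2 and Twist1). Twist1 was counted only through the peak over its neighbour Ferd3l, which the window edge cuts, and had no peak of its own. In the 3000 bp windows, 1 of 3 members with covered length was shorter in both E17 lists than in both E14 lists (En1), against 63.3% of protein-coding genes and 58.1% of all genes. Summed over the 8 genes, the covered length near start sites was 16406 and 14273 bp at E14 and 12003 and 10323 bp at E17. The means were 15340 ± 1508 and 11163 ± 1188 bp (SD, n = 2), a decrease of 27.2%, and En1 made up most of it with 3337 bp. The rest came from E17 replicate 2 at Msx1 and Msx2, without which the decrease was 21.8%.

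**Figure D4:**
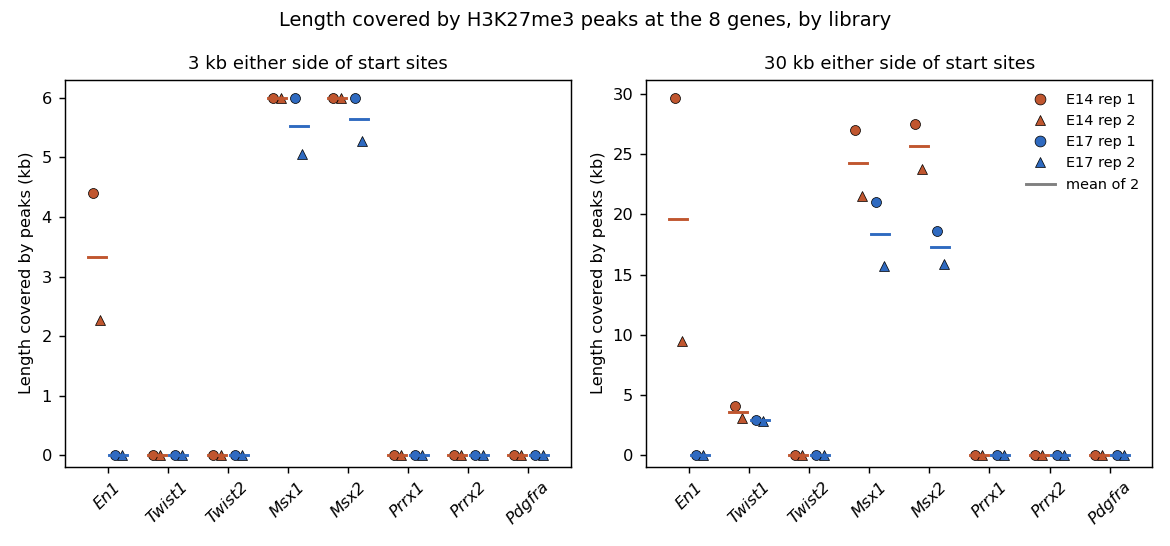
Length covered by peaks (y axis, kb) at each of the 8 genes within 3 kb (left) and 30 kb (right) of the start sites. Points are libraries and lines are means of 2; En1 falls to 0 at E17 in both windows, Msx1 and Msx2 are shorter in both E17 libraries in the wider window only, and 5 genes lie at 0 in the narrow window.

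The short stretches without a peak at the start sites of En1 in E14 replicate 1 and Msx1 in E17 replicate 2 held more CpG per kb than the peaks beside them, and the longer one at En1 in E14 replicate 2 held about as many. At En1, the 1598 bp between the peaks of E14 replicate 1 held 81.4 CpG per kb, and the flanking peaks 23.4 and 17.9 per kb. In E14 replicate 2, the 11786 bp without a peak held 28.8 CpG per kb, and the peak upstream of it 26.8 per kb. At Msx1, the 952 bp gap of E17 replicate 2 held 63.0 CpG per kb, and its flanking peaks 32.8 and 35.7 per kb. A start left uncovered between peaks was not particular to these genes. Among protein-coding genes with peaks on both sides within 3000 bp, 13.6% and 16.6% had an uncovered start in the E14 lists and 16.4% and 17.2% in the E17 lists. These shares do not apply to En1 in E14 replicate 2, where the downstream peak began 11056 bp after the start. Whether base composition had a part in these gaps was not tested.

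Twist1 and Twist2 encode bHLH factors of early mesenchyme, and Twist2, also called Dermo1, is known for its expression in the embryonic dermis. Twist1 lies on chromosome 12 from 33957671 to 33959829 on the plus strand, and its start-site window and gene body were free of peaks in all 4 libraries. The nearest peak lay upstream, with its near edge 25.9 and 26.9 kb away at E14 and 27.1 kb away in each E17 library. It covered Ferd3l, another bHLH gene on the same strand, at -29.2 to -28.4 kb from the Twist1 start. This peak was 7293 and 3908 bp wide at E14 and 3580 and 3542 bp wide at E17, at the 97.8, 98.1, 96.9 and 92.4 percentile of the lists. It was the only peak within 100 kb of the Twist1 start in each library. The pair of neighbours thus had opposite states at both stages, with Ferd3l marked and Twist1 not.

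Twist2 lies on chromosome 1 from 91801461 to 91848028 on the plus strand, and an antisense transcript, Gm29100, overlaps its start. No list had a peak in the gene or near its start. At E14 the nearest peak was 30.1 and 30.7 kb upstream of the start, 1531 and 920 bp wide, at the 77.3 and 24.1 percentile of its list. At E17 the nearest was 395.1 and 394.8 kb upstream.

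Prrx1 and Prrx2 encode paired-related homeobox factors of limb and head mesenchyme and of many fibroblasts. Prrx1 (chromosome 1 from 163245119 to 163313710, minus strand) had no peak within 100 kb of its start in any library. The nearest was 552.9 and 300.1 kb away at E14 and 836.7 kb away in both E17 libraries, farther than for any other member. Prrx2 (chromosome 2 from 30834972 to 30881251, plus strand) was likewise free of peaks over its 4 start sites and its gene body. A peak 31.5 to 32.7 kb upstream of its first start was present in every library, 3924 and 2534 bp wide at E14 and 1577 and 1735 bp wide at E17. Its percentile was 92.1 and 90.1 at E14 and 73.1 and 26.5 at E17. This peak lay within the gene 1700001O22Rik, and Ntmt1 and Asb6 stand between it and Prrx2.

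Pdgfra encodes a receptor tyrosine kinase for platelet-derived growth factors (chromosome 5 from 75152292 to 75198215, plus strand). Its 9 start sites, spread over a window of 15543 bp in all, had no peak in any library, nor did its gene body. The nearest peak was 55.6 and 57.3 kb upstream at E14 and 64.7 and 64.8 kb upstream at E17.

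The genes most alike in pattern to the 3 marked members were sought among protein-coding genes elsewhere in the genome, by the summed difference over the 4 libraries of the covered share of the start-site windows and of the rank share of the strongest peak. Nearest to En1 were Fam124a, at a summed difference of 0.172, and Mmp28, at 0.245. Peaks near Fam124a covered 4787 and 2650 bp at E14 and 0 bp at E17, and those near Mmp28 covered 4549 and 3377 bp at E14 and 0 bp at E17. Nearest to Msx1 were Gdf7 (0.0649) and the homeobox gene Dlx5 (0.0708). Nearest to Msx2 were Ankrd63 (0.0748) and Syt6 (0.0752). Each of these 4 genes had peaks over most of its windows in all 4 libraries. Likeness was measured over 4 libraries only.

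Close relatives of the members were set beside them. Of 7 such genes, 6 were marked at both stages (En2, Msx3, Ferd3l, Alx1, Alx4 and Shox2), and Pdgfrb had no peak in any library. Of all protein-coding genes, 12% had a start-site peak in all 4 lists. En2, the relative of En1, was covered over all 6001 bp of its window in each of the 4 libraries, at the 97.1 to 99.4 percentile, where En1 had no E17 peak. Msx3 was covered whole in 3 libraries and over 5210 bp in E17 replicate 2, covered lengths close to those of Msx1 and Msx2. Its percentiles were 95.8 and 96.1 at E14 and 87.1 and 82.9 at E17, below those of Msx1 and Msx2 in each library. Alx1, Alx4 and Shox2, paired-type homeobox genes as Prrx1 and Prrx2 are, were marked where the Prrx genes were not. Of the 7 relatives, Shox2 lost the most covered length, from 9325 and 7330 bp at E14 to 2369 and 1636 bp at E17. The median covered share over the 7 relatives was 89.3% of the windows at E14 and 67.6% at E17, against 0% at both stages over the 8 members and over all protein-coding genes.

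Of the 7 PDGF ligands and receptors, 2 ligands were marked at both stages. The remaining 5 genes, the receptors Pdgfra and Pdgfrb among them, had no peak in any library. The shares over all protein-coding genes were 12% with a start-site peak in all 4 lists and 74.1% with none in any list. Pdgfa was covered over 6727 and 6520 bp at E14 and 4976 and 5110 bp at E17, and Pdgfb over 7484 and 7348 bp and then 6723 and 6115 bp. For both ligands the E17 libraries were below the E14 libraries, as for 63.3% of protein-coding genes with any covered length near a start site. Pdgfc, Pdgfd and Pdgfrl were the other genes without a peak.

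Wnt and Bmp signals specify the dermis, and of 12 genes of these pathways 6 were marked, all of them at both stages. Over all protein-coding genes, 12% had a start-site peak in all 4 lists and 74.1% had none in any list. Of the 6 marked genes, 4 were shorter in both E17 libraries than in both E14 libraries. The same held for 63.3% of protein-coding genes with any covered length near a start site. The Bmp ligands Bmp2, Bmp4 and Bmp7 were marked, as were the Wnt effectors Lef1 and Tcf7 and the Wnt target Axin2. Bmp4 was covered over 9366 and 7957 bp at E14 and 7465 and 6842 bp at E17. Lef1 kept one of the strongest peaks of the E14 lists, at the 99.3 and 99.6 percentile, and stood at the 95.1 and 88.3 percentile at E17. The Bmp receptor gene Bmpr1a, the Bmp targets Id1, Id2 and Id3, and Ctnnb1 and Tcf7l1 had no peak in any library.

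**Figure D5:**
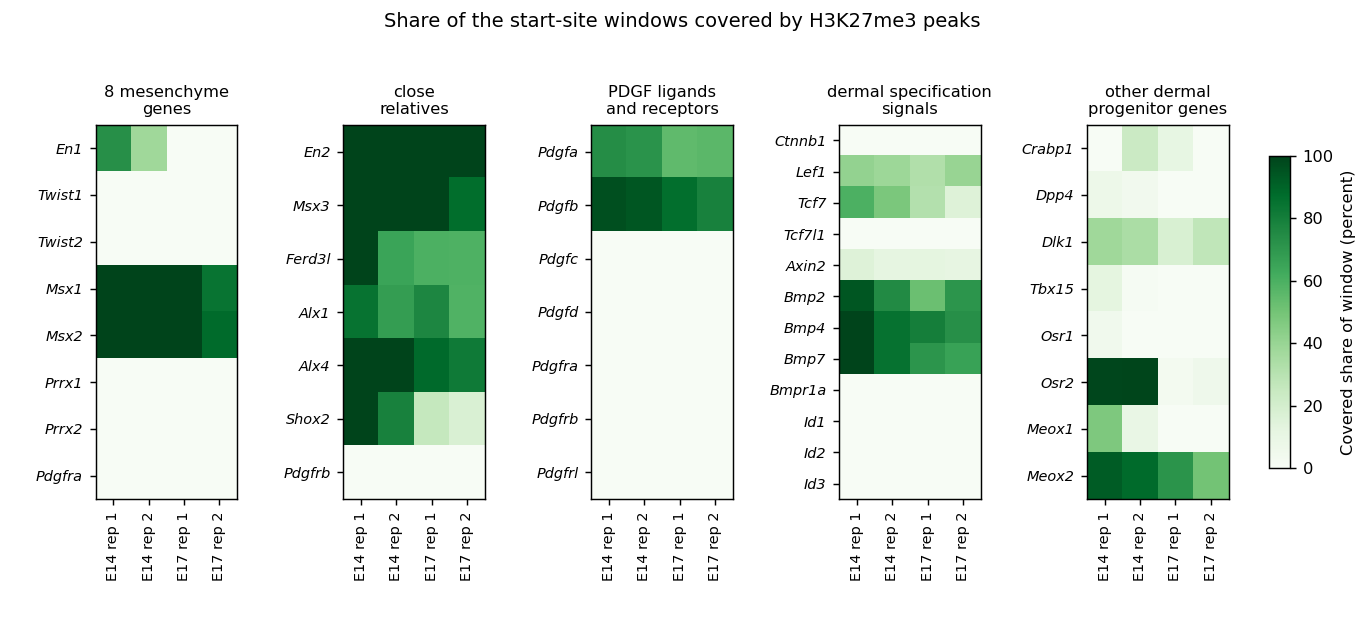
Share of the start-site windows covered by peaks (colour, percent) for each gene (rows) and library (columns), for the 8 genes and 4 lists of related genes. Among the 8 genes En1 loses its cover at E17 and 5 rows are empty, while 6 of 7 close relatives are covered in all 4 libraries.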

How the data were processed

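H3K27me3 ChIP-seq peak lists of 2 E14 and 2 E17 libraries of wild-type dermal fibroblasts were analysed, 1 list per library. The submitters' processing notes name Bowtie2 2.3.5.1, SAMtools 1.9, MACS2 2.2.7.1, deepTools 3.5.1 and mm10. The methods state broad peaks at a q-value threshold of 0.01 and do not name the control. Subsampling is stated for some E18.5 samples, and whether it covers these libraries is not clear. The labels name sonication and an Ion Torrent kit where the methods name an enzymatic kit and Illumina sequencing. The deposited values for a peak are its fold enrichment over background (a ratio), its −log10 p-value and its −log10 q-value, with no read counts.

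Start sites came from GENCODE M21 (GRCm38), chromosomes only. Covered length, presence (at least 1 bp within 3000 bp of any start site) and the percentile of fold enrichment within a list were computed per gene with Python 3.11.15, numpy 2.4.6, pandas 2.3.3, scipy 1.17.1 and pysam 0.24.0, and tested on simulated data. Stages were compared by exact permutation tests. The members and lists were chosen with earlier results of these data known. Named genes are the members, the genes of the fixed lists, and the 2 protein-coding genes at least 1 Mb away that were most alike to each marked member. Alternatives were stricter q-values, minimum width, equal list lengths, other windows and gene rules, the replicate block and leaving out each library. The input library was not used here, and 1 gene of the lists is not reported here.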

Additional observations from a re-analysis of the deposited data

How the results depend on the processing

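The number of members marked at E14 ranged from 2 to 4 and at E17 from 2 to 3 over 15 alternatives each, within 1.5 times of the reported 3 and 2. The 4 and the 3 came with windows of 30000 bp, where the peak over Ferd3l reaches into the Twist1 window. With a −log10 q-value of at least 5, En1 was no longer marked at E14, since its peak in replicate 2 fell out, and 0 members were shorter at E17. The number of members shorter at E17, reported as 1, was 2 with windows of 10000 bp and 4 with windows of 30000 bp, a setting added after seeing the data. Leaving out 1 library gave 1 to 3, and the 3 came without E17 replicate 1, when Msx1 and Msx2 were counted too. The decrease in summed covered length was 47.3% with windows of 30000 bp and ranged from 21.8% to 32.7% when 1 library was left out. For Msx1, the difference in percentile between E14 and E17 turned from 0.313 to -0.183 with lists of equal number and to -0.352 without E17 replicate 1. For Msx2 that difference, 5.42 as reported, ran from 3.83 to 28.3 over the alternatives, and E17 was lower in each. The p-values of 2 libraries against 2 cannot fall under 0.333, so they say nothing of stability. In 32 related genes, those marked at E17 numbered 17, and 9 with a −log10 q-value of at least 5.

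The labels share replicate numbers 1 and 2 between the stages and do not say that a number marks a shared litter or day. The deviations of replicate 1 from its stage mean correlated between the stages across 9083 genes with r = 0.139, 1 value from 2 pairs. With the replicate number as a block, the decrease in summed covered length was 27.3%, 1 member was shorter at E17, and no call changed. The lists hold no read counts, so depth limits every absence of a peak to the threshold of its list.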

Other observations

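Of 8 other genes of dermal progenitors, all had covered length near a start site in at least 1 library. Of these genes, 6 were marked at E14 and 3 at E17. Over all protein-coding genes, 19.5% were marked at E14 and 12.2% at E17, and 74.1% had no start-site peak in any list. Covered length was shorter in both E17 libraries than in both E14 libraries for 6 of the 8, where 63.3% of protein-coding genes with covered length were. Osr2, a zinc finger factor of mesenchyme, was covered over 10110 and 10148 bp at E14 and over 305 and 605 bp at E17. The homeobox gene Meox2 was covered over 5539 and 5264 bp at E14 and 4267 and 3005 bp at E17. Dlk1, known as an inhibitor of fat cell differentiation, was covered over 4913 and 4444 bp at E14 and 2308 and 3511 bp at E17. Dpp4, Tbx15 and Meox1 had peaks in both E14 libraries and in neither E17 library. This was the pattern of En1 and of 4.62% of protein-coding genes. Dpp4 was covered over 1620 and 1003 bp, Tbx15 over 2193 and 267 bp and Meox1 over 2815 and 585 bp at E14. Crabp1 had a peak in E14 replicate 2 and in E17 replicate 1 only, and Osr1 one of 458 bp near a start site in E14 replicate 1 only.

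Of the 21 markers of other cell types, 14 were free of start-site peaks at both stages. Krt5, Krt14, Krt10, Trp63, Mitf, Dct, Tyr and Myog were among these 14. The genes that follow belong to the 7 markers that were marked at E14. Cdh1, the epithelial cadherin, was covered over 6793 bp in both E14 libraries and over 5297 and 5529 bp at E17. The muscle regulator Myod1 was marked at both stages, with 5619 and 4460 bp at E14 and 3621 and 3122 bp at E17, and Myf5 was marked at E14 only, with 3359 and 463 bp. Sox10, a factor of melanocytes and glia, was covered over 5799 and 5699 bp at E14 and 4558 and 3129 bp at E17.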
